A study of Mus musculus with 20 samples.

Results

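Lung metastases of the 4T1 breast cancer (BC) model were compared with the primary tumours of the same mice across all measured genes. 4T1 is a mouse mammary carcinoma line that spreads to the lung from a tumour grown in the mammary gland. The comparison used 8 of the 20 libraries of the series: 4 libraries of the group labelled BC lung metastasis and 4 of the group labelled BC primary tumor, 1 of each from each of 4 mice. All 8 carry the genotype label 4T1 derived and the time label 28 days, come from bulk tumour tissue of orthotopic mouse models, and have no treatment in the labels. The sources used here do not give the strain, sex or age of the mice or the number of grafted cells. The members of the comparison are the table's rows with a gene symbol and with values in these 8 columns (15465 genes). Of these, 14003 were tested because 4 or more of the 8 libraries reached a value of 1. Values are normalised read counts, close to reads per 1000000, given in the order of mice 1 to 4 or as mean ± SD (n = 4 mice). A gene was called, and is said to have risen or fallen, at a Benjamini-Hochberg adjusted p under 0.05 in limma on log2(value + 1). All log2 changes are lung metastasis minus primary tumour on that scale, which understates the change of low genes.

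A carcinoma grows with a stroma of vessels, fibroblasts, macrophages and lymphocytes that it recruits from the tissue around it. Capillaries are wrapped by pericytes, activated fibroblasts lay down and remodel collagen-rich matrix, and macrophages and cytotoxic lymphocytes enter from the blood. A metastasis builds this stroma anew from lung tissue, and a piece cut from it can also hold air spaces, airway and blood of the lung. In bulk tissue, fewer cells of a type and less RNA per cell cannot be told apart.

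Depth was 15447918 to 28995834 reads per library. Lung epithelium genes were high in every metastasis: 16 of 17 rose. They took 0.768% to 3.51% of the column total in the metastases, against 0.0107% to 0.0152% in the primaries. Sftpc, the surfactant protein C gene of alveolar type 2 cells, stood at 3957, 5014, 8152 and 3014 in lung metastases and at 1.03, 1.89, 1.65 and 1.06 in primary tumours. Camp, the cathelicidin gene of neutrophil granules, stood at 309, 184, 692 and 212 against 10.8, 3.08, 2.76 and 3.59, so both markers separated the groups in all 4 mice. The keratin genes Krt8 and Krt18 of simple epithelial and carcinoma cells were present in all 8 libraries. Krt8 stood at 225 to 1462 in the metastases and 531 to 1321 in the primaries (adjusted p = 0.519). Krt18 stood at 196 to 1166 and 546 to 1141 (adjusted p = 0.367). Lung metastasis 3 stood apart. It had the lowest depth and the highest share of lung epithelium (3.51%), neutrophil (3.13%) and erythroid genes (0.923%), and limma's array weights gave it 0.154 against 0.602 to 2.31 for the other 7 libraries.

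Of the 14003 genes 1279 were called (9.13%), 1005 higher (7.18%) and 274 lower (1.96%) in lung metastases, and 3225 had an unadjusted p under 0.05. The falls had higher values in primary tumours than the rises and were smaller on the log2(value + 1) scale. Primary tumours are the high group of every fall and the low group of every rise, so this order is partly built in. A primary mean under 1 was found for 371 of the rises. On this scale the size of a fall is also capped by the primary level. Genes that fell had a median mean of 57.0 in primary tumours, genes that rose one of 2.26, and all genes tested one of 27.6. The median log2 change was -1.14 for the falls, 2.26 for the rises and -0.06 for all genes, of which 54.9% were negative. On the log2(value + 1) scale 170 falls were of at least 2-fold, 39 of at least 4-fold, 9 of at least 8-fold and 0 of at least 16-fold, against 119 rises of at least 16-fold. By the ratio of means, with the floor of 3 reads for genes at 0 in the metastases, 13 falls reached 16-fold. Changes of under 2-fold on the log2(value + 1) scale made up 104 falls (38.0% of the falls, 0.743% of the genes tested) and 55 rises (5.47% of the rises, 0.393% of the genes tested). In the plot of change by level these falls form a band just below 0 at middle and high levels.

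**Figure D1:**
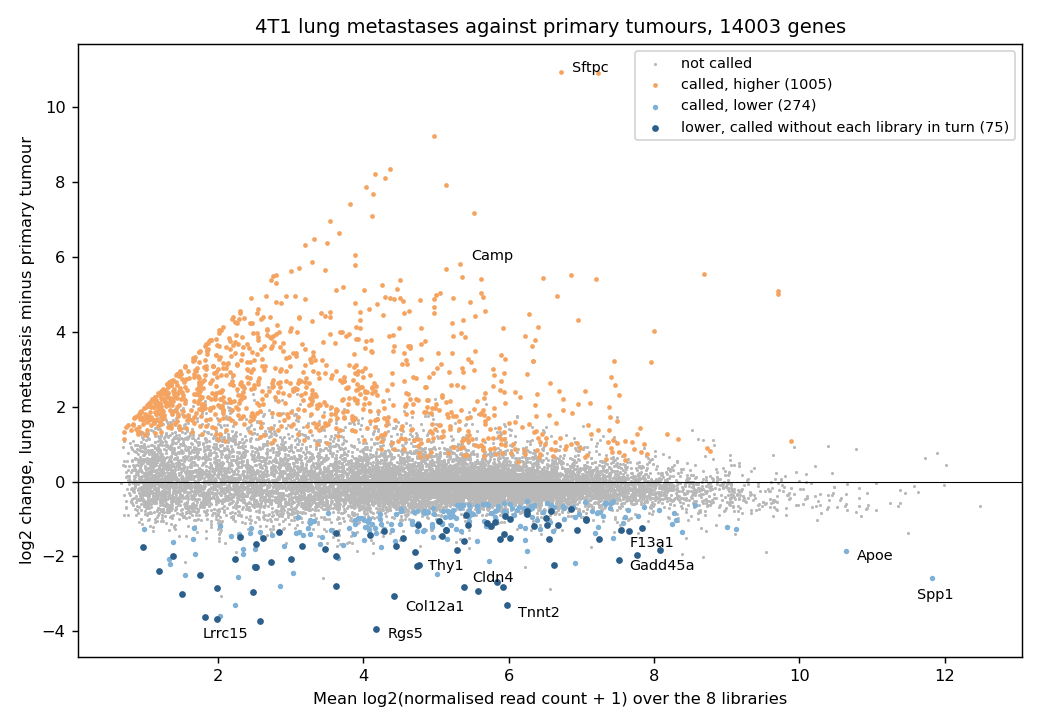
Each point is 1 of 14003 genes, placed by its mean log2(normalised read count + 1) over the 8 libraries and its log2 change from primary tumour to lung metastasis. The 1005 called rises (orange) reach beyond 10 on the log2 scale, the 274 called falls (blue) stop at -3.94, and 75 falls (dark blue) were called whichever of the 8 libraries was left out.

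All 274 falls were lower in the metastasis of all 4 mice, as were 2145 of all genes tested. The groups did not overlap for 270 of the called falls (1.93% of the genes tested) and 971 of the called rises (6.93%). Over all genes tested, called or not, they did not overlap for 2512 (17.9%), 1058 lower (7.56%) and 1454 higher (10.4%). The falls were deepest in mouse 3. Lung metastasis 3 held the lowest value of 161 of the 274 falls, and the median log2 difference of the falls within mouse 3 was -1.44, against -0.91, -0.87 and -1.06 in mice 1, 2 and 4. Without lung metastasis 3 there were 431 falls, including 268 of the 274. The number of falls was 142, 198 and 366 without lung metastasis 1, 2 and 4. It was 141, 199, 122 and 84 without primary tumour 1, 2, 3 and 4, and 176 with a mouse block. With column totals recomputed without lung, neutrophil and erythroid genes 223 of the 274 falls were still called. Libraries named after "without" were left out 1 at a time. In all, 75 falls were called whichever library was left out and 65 under every alternative, against 593 and 411 of the 1005 rises.

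The largest fall on the log2(value + 1) scale was of a pericyte gene, but pericyte genes did not fall as a group. Rgs5 (ENSMUSG00000026678), a regulator of G protein signalling that marks pericytes of tumour vessels, stood at 41.4, 146, 52.9 and 74.3 in primary tumours and at 5.22, 3.91, 2.84 and 2.94 in the metastases of the same mice. The lowest primary tumour was still far above the highest metastasis. The log2 change was -3.94 (SE 0.37, adjusted p = 0.000169), and the ratio of means was 21.1-fold. By the ratio of means other falls were larger, Gzmf (156-fold) and Lrrc15 (125-fold) among them. Abcc9, the sulfonylurea receptor subunit of a potassium channel of mural cells, stood at 7.63, 25.3, 6.88 and 12.2 against 1.58, 1.49, 5.81 and 0 (adjusted p = 0.0335). Of the 12 pericyte genes tested 2 fell and 3 rose, with a median log2 change of 0.26. The shares over all genes tested were 1.96% lower and 7.18% higher. Gucy1a3 and Gucy1b3, subunits of the guanylate cyclase that senses nitric oxide, rose from 1.52 ± 0.458 to 32.1 ± 25.1 and from 2.54 ± 1.72 to 30.6 ± 16.1. Cox4i2, a subunit of the respiratory chain, rose from 2.89 ± 1.88 to 13.1 ± 7.7. Gucy1a3 stood at 28.5, 19.9, 68.3 and 11.6 in lung metastases 1 to 4, in the order of their lung epithelium shares (2.07%, 1.09%, 3.51% and 0.768%). The part of lung tissue in the rises of pericyte genes was not tested. The pericyte receptor gene Pdgfrb stood at 44.7 ± 17.2 against 37.6 ± 13.9 (adjusted p = 0.678). The Abcc9 call ended without lung metastasis 1 or 2 or primary tumour 1, 2, 3 or 4 (adjusted p 0.0513 to 0.0997) and with a pseudocount of 0.1 (0.0836), a mouse block (0.0544), edgeR (0.184) and DESeq2 (0.0825), and across all alternatives the adjusted p was 0.00161 to 0.184. The Cox4i2 call ended without lung metastasis 1 or 3 or primary tumour 1, 2 or 3 (adjusted p 0.0508 to 0.109) and with a mouse block (0.0847) and edgeR (0.0567), and across all alternatives the adjusted p was 0.00307 to 0.109.

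Of 13 tumour vessel genes 1 rose and 1 fell, where 7.18% of all genes tested rose and 1.96% fell. Unc5b, a netrin receptor of sprouting endothelium, fell from 286, 257, 353 and 398 to 153, 136, 83.5 and 149, lower in every metastasis than in any primary tumour (log2 change -1.32, SE 0.23, adjusted p = 0.00518). It was the 1 fall among 13 tumour vessel genes. Flt1, a receptor of vascular endothelial growth factor, was the 1 rise, from 82.5 ± 16.5 to 171 ± 61.9. Its call ended without lung metastasis 1 or 4 or primary tumour 1, 3 or 4 (adjusted p 0.0531 to 0.127) and with a mouse block (0.0589), and across all alternatives the adjusted p was 0.00443 to 0.127. Among 12 pan-endothelial genes 6 rose and 0 fell (median 1.24, 2 to 6 rises over the alternatives). Among 9 lung capillary genes 8 rose and 0 fell (median 3.37). The lung capillary genes took 0.0674% to 0.439% of the column total in the metastases, against 0.00646% to 0.0234% in the primaries. Their part in the endothelial rises was not tested. Of 10 smooth muscle genes 3 rose and 0 fell (0 to 5 rises over the alternatives, 1 with a mouse block). Des, the intermediate filament desmin, rose from 8.65 ± 7.56 to 44.3 ± 21.7, and its call ended without lung metastasis 1 or primary tumour 3 or 4 (adjusted p 0.0526 to 0.0579), and across all alternatives the adjusted p was 0.000908 to 0.0579. The rises of Mylk, the myosin light chain kinase gene, and Cnn1, calponin, ended with a mouse block (adjusted p = 0.0562 and 0.0708). The Mylk call also ended without lung metastasis 1 or 2 or primary tumour 1, 3 or 4 (adjusted p 0.0576 to 0.119). That of Cnn1 also ended without lung metastasis 1 or 3 or primary tumour 1, 3 or 4 (adjusted p 0.0612 to 0.143). It ended as well with a pseudocount of 5 (0.0816) and edgeR (0.0649). The actin gene Acta2 stood at 49.8 ± 22.9 in primary tumours and 58.5 ± 19.3 in lung metastases (adjusted p = 0.649).

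Of the genes of activated fibroblasts more fell than rose. Of 18 tested, 16 had a negative log2 change, 7 fell and 2 rose, with a median of -1.31 (-0.84 without lung metastasis 3, with 7 falls). Over all genes tested the median was -0.06 and 1.96% fell. The list took 0.0736% to 0.118% of the column total in primary tumours and 0.0220% to 0.0404% in lung metastases, with no overlap. Without Postn and Col12a1, its 2 highest members, left out after seeing the data, the shares were 0.0497% to 0.0633% in the primaries and 0.0128% to 0.0332% in the metastases and did not overlap. Lrrc15 (ENSMUSG00000052316), a surface protein of fibroblasts in tumour stroma, stood at 21.3, 3.43, 17.4 and 21.1 in primary tumours. It had 0 reads in 3 metastases and a value of 0.504 in lung metastasis 4. Primary tumour 2 was lowest among the primaries, yet above all metastases (log2 change -3.68, SE 0.51, adjusted p = 0.00137).

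Col12a1, which encodes a collagen that coats fibrils, was lower in the metastasis of all 4 mice, and lowest in lung metastasis 3. It stood at 112, 152, 119 and 141 in primary tumours and at 19.5, 18.8, 10.1 and 19.2 in lung metastases (log2 change -2.92, SE 0.23, adjusted p = 6.48e-05). Mmp11, the stromelysin-3 gene of stromal fibroblasts, fell from 54.6, 42.8, 54.8 and 68.7 to 19.8, 25.4, 20 and 21 (adjusted p = 0.00219). Postn and Tnc, the matricellular proteins periostin and tenascin-C, Fap, the fibroblast activation protein, and Twist2, a mesenchymal transcription factor, were named after their values were seen. Postn stood at 336, 84.4, 388 and 395 against 64.9, 50.9, 86.5 and 33.8, low in primary tumour 2 and so with overlapping groups (adjusted p = 0.0161). Tnc stood at 117 ± 42.5 against 29.9 ± 20.2 (adjusted p = 0.0225). Fap stood at 6.58 ± 1.75 against 1.96 ± 1.31 (adjusted p = 0.0387) and Twist2 at 3.89 ± 2.16 against 0.548 ± 0.482 (adjusted p = 0.0329). The calls of these 4 each ended without primary tumour 3, without primary tumour 4 and under 1 to 7 other alternatives. Over all alternatives the adjusted p was 1.93e-05 to 0.0622 for Postn, 0.000756 to 0.0758 for Tnc, 0.0126 to 0.129 for Fap and 0.00535 to 0.129 for Twist2. With a mouse block 5 members fell, Fap (adjusted p = 0.0647) and Twist2 (0.0544) not among them. Over the alternatives 3 to 8 fell.

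Aebp1, a collagen-binding protein of fibroblasts, and Sfrp2, a secreted Wnt modulator, were the 2 members that rose. Aebp1 went from 23.3, 19.4, 21.6 and 22.1 to 40.4, 93.4, 57.9 and 54.3 (adjusted p = 0.0051). Sfrp2 went from 3.58 ± 1.78 to 15.9 ± 8.42 (adjusted p = 0.0273), and that call ended without lung metastasis 2 or 4 or primary tumour 1, 2 or 3 (adjusted p 0.0518 to 0.076) and with a mouse block (0.06), and across all alternatives the adjusted p was 0.00096 to 0.076. Of 11 genes of resting fibroblasts 4 rose and 1 fell, with a median of 0.85. The shares over all genes tested were 7.18% higher and 1.96% lower. Clec3b, the tetranectin gene, rose from 1.23, 0.158, 1.11 and 0.528 to 37.9, 57.7, 77.5 and 33. Dpp4, a dipeptidase of resting fibroblasts, rose from 0.914, 0, 0.978 and 1.73 to 18, 34, 53.1 and 17.9. Dcn, the proteoglycan decorin, rose from 60 ± 6.61 to 142 ± 49.5 and Dpt, dermatopontin, from 6.52 ± 2.53 to 27 ± 10. The exception was Col15a1, a collagen next to basement membranes, which fell from 39, 50.8, 54.4 and 54.5 to 6.56, 15.3, 13 and 18.6 (adjusted p = 0.00281). Mesothelial cells of the lung surface can express several fibroblast genes, and 7 of 8 mesothelium genes rose. These took 0.0208% to 0.0579% of the column total in the metastases and 0.00658% to 0.0164% in the primaries, where Nkain4 and Rspo1 had 0 reads. Their part in these rises was not tested.

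Fibrillar matrix genes were called in both directions, where 7.18% of all genes tested rose and 1.96% fell. Of 18 fibrillar matrix genes 2 fell and 3 rose (median 0.01, 1 to 3 falls and 0 to 3 rises over the alternatives). Col5a3, a minor fibril collagen, fell from 24.5, 33.7, 35.2 and 27.2 to 9.37, 13.5, 9.4 and 13.5 (adjusted p = 0.0051). The main collagen gene Col1a1 stood at 501, 160.0, 556 and 485 against 211, 358, 237 and 308 with overlapping groups (adjusted p = 0.466). Without primary tumour 2, the library lowest in Col1a1, that gene passed as well (adjusted p = 0.0423, in a range of 0.0423 to 0.718 over its alternatives). Col6a3, a chain of microfibril collagen, was the other fall, from 74 ± 12.7 to 43.6 ± 8.67. Fbn1, the fibrillin-1 gene, rose from 28.3 ± 7.92 to 70.5 ± 26.6. Lox, a collagen cross-linking oxidase, rose from 28.4 ± 13.7 to 104 ± 49.9. Bgn, the proteoglycan biglycan, rose from 97.7 ± 33.5 to 262 ± 128. Fn1, the fibronectin gene, stood at 3756, 4230, 6396 and 4589 against 1487, 2702, 769 and 3324 and did not pass (adjusted p = 0.114, 0.0156 to 0.26 over its alternatives). Among 13 basement membrane genes 2 fell and 0 rose (0 to 4 falls over the alternatives). Lama5, a laminin chain, went from 471 ± 27.6 to 305 ± 30.7.

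Among genes of matrix-cutting enzymes and their inhibitors most calls were rises, where 7.18% of all genes tested rose and 1.96% fell. Of 14 genes of this matrix protease list 1 fell and 4 rose (median 0.15). Adamts4, an aggrecan-cutting protease, fell from 29.1, 73.4, 30.3 and 32.6 to 17.1, 11.1, 9.13 and 15.5 (adjusted p = 0.0163). Its relatives Adamts1, from 19.9 ± 9.07 to 55.8 ± 11.1, and Adamts5, from 5.88 ± 2.63 to 23 ± 3.91, rose. Timp3, a matrix-bound inhibitor of these proteases, rose from 3.34, 18.5, 5.39 and 5.6 to 51.8, 134, 203 and 66.1, 13.8-fold by the ratio of means. Mmp9, a gelatinase of neutrophils and macrophages, rose from 69.9, 99.3, 34.3 and 52 to 285, 147, 799 and 119.7, highest in lung metastasis 3, which had the highest neutrophil share (3.13%). The part of neutrophils was not tested. The Col6a3 call ended without lung metastasis 1, 2 or 4 or primary tumour 1, 3 or 4 (adjusted p 0.0622 to 0.144) and with a mouse block (0.0862), median-ratio scaling (0.0585), totals without lung and blood genes (0.0528) and edgeR (0.054), and across all alternatives the adjusted p was 0.00243 to 0.144. The calls of Fbn1, Lox, Bgn, Lama5 and Mmp9 each ended under 2 to 9 alternatives. Over all of them the adjusted p was 0.000991 to 0.0771 for Fbn1, 0.000991 to 0.071 for Lox, 0.00307 to 0.101 for Bgn, 0.000751 to 0.113 for Lama5 and 0.000327 to 0.116 for Mmp9. With a mouse block the calls of Lama5 and Mmp9 ended (adjusted p = 0.0949 and 0.0625).

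**Figure D2:**
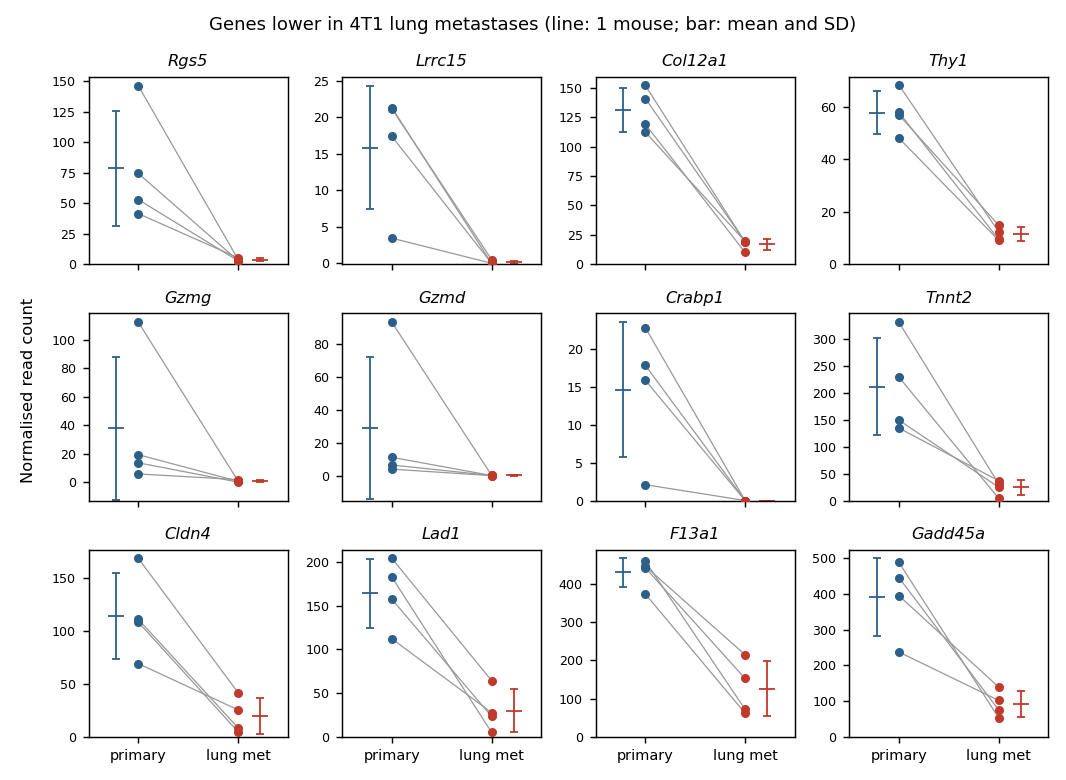
Normalised read counts of 12 genes that fell, 1 point per library, with a line joining the 2 tumours of a mouse and bars for the mean and SD of 4 mice. In all 12 panels every metastasis lies below every primary tumour; primary tumour 2 is far above the others for Gzmg and Gzmd and below them for Lrrc15 and Crabp1.

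A group of 5 neighbouring granzyme genes fell. Granzymes are serine proteases that cytotoxic lymphocytes release into target cells. Gzma and Gzmb are the common ones, and Gzmc to Gzmg lie side by side on mouse chromosome 14. The promoters of 3 of them are shown because the genes moved together. They are the 250 bases before each gene's start, 5′ to 3′ on the minus strand, from RefSeq (GRCm38.p6). Capitals mark matches to TGTGGT, the core of RUNX sites, on either strand; ACCACA is the match on the other strand. RUNX factors are transcription factors of T and natural killer cells. Gzmd, chr14:56132594-56132843, Gzme, chr14:56120626-56120875, and Gzmf, chr14:56211408-56211657, read as follows.
Gzmd: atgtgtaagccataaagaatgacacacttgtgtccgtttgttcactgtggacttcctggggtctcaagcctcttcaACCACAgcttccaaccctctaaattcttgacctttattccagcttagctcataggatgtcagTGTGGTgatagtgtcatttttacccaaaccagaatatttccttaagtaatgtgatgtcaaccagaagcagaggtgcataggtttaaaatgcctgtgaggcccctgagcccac
Gzme: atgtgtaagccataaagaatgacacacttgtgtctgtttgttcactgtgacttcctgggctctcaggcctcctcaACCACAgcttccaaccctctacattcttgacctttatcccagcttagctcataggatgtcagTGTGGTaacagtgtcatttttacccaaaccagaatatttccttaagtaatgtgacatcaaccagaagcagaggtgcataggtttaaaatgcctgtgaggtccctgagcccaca
Gzmf: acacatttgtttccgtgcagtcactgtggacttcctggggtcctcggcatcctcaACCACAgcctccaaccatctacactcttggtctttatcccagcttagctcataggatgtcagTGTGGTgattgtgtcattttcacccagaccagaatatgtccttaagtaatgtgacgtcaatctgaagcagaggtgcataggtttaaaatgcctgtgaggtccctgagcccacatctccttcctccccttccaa
Each of the 5 promoters of Gzmc, Gzmd, Gzme, Gzmf and Gzmg held 2 such matches, 1 on each strand, and 14.05% of 32851 promoters of that length held at least 1. In Gzmd the matches began 174 and 112 bases before the gene's start and in Gzmf 195 and 133 bases before it. TATAAA, the TATA box, and TGANTCA, the AP-1 site, had no match in these 5 windows and a match in 12.37% and 6.75% of all promoters. Aligned in pairs, the 5 promoters were 70.2% to 94.8% identical, with Gzmd and Gzme the closest pair and Gzmc and Gzmf the least alike. Windows this alike are not 5 separate observations, so these counts beside the share of all promoters do not measure an enrichment. A match is a description of the letters and was not tested as a binding site. Its part in the falls was not tested either.

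Primary tumour 2 held the highest values of these granzymes. Gzmg stood at 5.72, 112, 19.2 and 13.5 in primary tumours and 1.74, 0.747, 0.541 and 0 in lung metastases (log2 change -3.72, SE 0.73, adjusted p = 0.0101). Gzmf stood at 1.51, 102, 15.3 and 8.59 against 0.672, 0.142, 0 and 0, and Gzmd at 4.33, 92.9, 11.5 and 6.83 against 0.395, 0.64, 0.473 and 0.504. For these genes no metastasis reached the level of any primary tumour. Gzme stood at 3.54, 33.4, 4.69 and 3.63 in primary tumours with 0 reads in all 4 metastases, at least 81.6-fold lower with a floor of 3 reads per library (adjusted p = 0.0105). Without primary tumour 2 that bound was 28.5-fold, computed after seeing the data. Gzmc stood at 7.71, 57.3, 20.2 and 11.3 against 3.64, 1.1, 0 and 4.83 (adjusted p = 0.0268). Gzma rose in contrast, from 0.954, 1.97, 0.607 and 2.36 to 10.9, 8.93, 10.7 and 6.64 (adjusted p = 0.00296). Gzmb, named after its values were seen, stood at 6.25 ± 5.28 against 2.45 ± 2.17 with overlapping groups (adjusted p = 0.318).

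Of 9 granzyme and perforin genes tested 5 fell and 1 rose, with a median of -2.80, and 2 to 5 fell over the alternatives. The shares over all genes tested were 1.96% lower and 7.18% higher. Prf1, perforin, stood at 2.11, 13.7, 1.72 and 2.75 against 6.17, 0.569, 0.27 and 0.882, also highest in primary tumour 2 (adjusted p = 0.383). Markers of the lymphocytes that carry these proteases did not fall: of 11 T and NK cell genes 1 rose and 0 fell, with a median of 0.88. They took 0.00347% to 0.00939% of the column total in the metastases, against 0.000797% to 0.00326% in the primaries. Their part in the granzyme falls was not tested. The call of Gzmd ended without lung metastasis 1 (adjusted p = 0.0541) and with a pseudocount of 5 (0.0884), and across all alternatives the adjusted p was 4.98e-10 to 0.0884. That of Gzmf ended without lung metastasis 1, 2 or 4 or primary tumour 3 or 4 (adjusted p 0.0513 to 0.081) and with a pseudocount of 5 (0.103), and across all alternatives the adjusted p was 0.000371 to 0.103. The call of Gzme ended with a pseudocount of 5 (0.0792), and across all alternatives the adjusted p was 0.00131 to 0.0792. The Gzmc call ended without lung metastasis 2 or primary tumour 2, 3 or 4 (adjusted p 0.0531 to 0.0738) and with a pseudocount of 0.1 (0.0621), a mouse block (0.0505) and edgeR (0.0843), and across all alternatives the adjusted p was 0.00672 to 0.0843. Of the 50-base stretches of their transcripts, 21.9% in Gzmd, 20.6% in Gzme and 19.8% in Gzmg, but 7.36% in Gzmf and 4.14% in Gzmc, occur in another granzyme. Reads can be split between them, so their separate values are uncertain.

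All 18 macrophage genes tested had a negative log2 change and 3 fell, against 54.9% negative and 1.96% fallen over all genes tested. The median was -1.05 (-0.81 without lung metastasis 3). The list took 1.22% to 1.91% of the column total in the primaries, against 0.166% to 0.628% in the metastases. Of it Spp1 and Apoe took 0.957% to 1.46% in the primaries, against 0.0716% to 0.439% in the metastases. In an alternative chosen after seeing the data, the other 16 genes took 0.260% to 0.456% in the primaries and 0.0947% to 0.272% in the metastases, which overlapped. Spp1, osteopontin, a secreted phosphoprotein of macrophages and tumour cells, stood at 9030, 7828, 9986 and 8721 against 2224, 2018, 289 and 3651, lowest in lung metastasis 3 (log2 change -2.58, SE 0.69, adjusted p = 0.0424). Apoe, the apolipoprotein E gene, stood at 3270, 1672, 4279 and 3674 against 965, 1329, 458 and 856 (log2 change -1.85, SE 0.41, adjusted p = 0.0166). Trem2, a macrophage receptor that senses lipids, stood at 121, 57.5, 86 and 72.6 against 24.1, 50.9, 11.2 and 34.4 (adjusted p = 0.0334). For Apoe and Trem2 mouse 2 showed the smallest difference. Arg1, the arginase gene of tumour macrophages, named after its values were seen, stood at 544, 718, 945 and 492 against 101, 408, 55.6 and 365 and did not pass (adjusted p = 0.0639, 0.0189 to 0.167 over its alternatives).

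The macrophage calls changed with the setting: 0 to 9 of the 18 genes fell over the alternatives, and these 3 calls ended when the mouse was a block. The call of Spp1 ended without lung metastasis 1 or 2 or primary tumour 1, 2, 3 or 4 (adjusted p 0.0748 to 0.111) and with a pseudocount of 5 (0.0538), a mouse block (0.0586) and edgeR (0.0613), and across all alternatives the adjusted p was 0.000735 to 0.111. The call of Apoe ended without primary tumour 1, 3 or 4 (adjusted p 0.0542 to 0.0633) and with a mouse block (0.0536), and across all alternatives the adjusted p was 1.1e-05 to 0.0633. That of Trem2 ended without lung metastasis 1 or primary tumour 1, 3 or 4 (adjusted p 0.0836 to 0.11) and with a mouse block (0.0548) and edgeR (0.0587), and across all alternatives the adjusted p was 0.00597 to 0.11. Of 5 genes of the resident macrophages of the air spaces 4 rose and 0 fell, with a median of 3.58. F13a1, the A subunit of coagulation factor XIII, a transglutaminase of tissue macrophages and platelets that is in none of the lists, fell from 373, 445, 441 and 459 to 61.8, 214, 152 and 71.8 (log2 change -1.95, SE 0.35, adjusted p = 0.00655, 0.000109 to 0.0278 over its alternatives).

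Epithelial genes of the carcinoma were called in both directions, where 7.18% of all genes tested rose and 1.96% fell. Of 14 tested 1 fell and 2 rose, with a median of -0.11. Cldn4, a claudin of tight junctions, stood at 69.2, 108, 111 and 169 in primary tumours and 25.5, 4.77, 8.45 and 41.8 in lung metastases (log2 change -2.80, SE 0.56, adjusted p = 0.0109). Lad1, ladinin, which anchors epithelium to its basement membrane, fell from 157, 112, 183 and 204 to 23.3, 27.7, 5.07 and 64.3 (adjusted p = 0.012). Prom2, a prominin of epithelial membrane protrusions, fell from 4.37, 6.39, 25.8 and 16.5 to 1.38, 0.285, 2.77 and 0.42 (adjusted p = 0.0156). Its call ended without primary tumour 4 (adjusted p = 0.0619), and across all alternatives the adjusted p was 0.000306 to 0.0619. The groups did not overlap for these 3 genes, although lung metastasis 4 kept the highest levels of Cldn4 and Lad1 among the metastases. Epcam, the epithelial adhesion molecule, stood at 89.2, 118, 104 and 180.5 against 65.1, 30.2, 38.9 and 109 without passing (adjusted p = 0.0932, 0.0149 to 0.257 over its alternatives). It passed with a mouse block (adjusted p = 0.0373).

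Krt19, a keratin of ductal and airway epithelium, rose from 12.1, 13.4, 22.2 and 8.77 to 76, 101, 128 and 188 (adjusted p = 0.000337). It was highest in lung metastasis 4, which had the lowest lung epithelium share (0.768%). The part of lung epithelium in this rise was not tested. Of 10 genes of the mesenchymal transition 0 were called and 7 were negative (median -0.27), where 54.9% of all genes tested were negative. At an unadjusted p under 0.05 there were 1 rise and 3 falls in limma, edgeR called 0 genes, DESeq2 1 fall, and all alternatives 0 to 2 falls.

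Some of the largest falls were of genes known from other tissues. Crabp1 (ENSMUSG00000032291), which binds retinoic acid in the cytoplasm, stood at 17.8, 2.09, 15.9 and 22.8 in primary tumours and had 0 reads in all 4 metastases, at least 106-fold lower with a floor of 3 reads per library (adjusted p = 0.00298). Like Lrrc15 it was lowest in primary tumour 2 among the primaries. Of 11 genes that bind or process retinoids Crabp1 was the 1 that fell, and 3 rose. The shares over all genes tested were 1.96% lower and 7.18% higher. The retinal dehydrogenase genes Aldh1a1 and Aldh1a2 rose from 0.488 ± 0.195 to 233 ± 151 and from 0.642 ± 0.898 to 50.1 ± 25.9. Rbp4, a retinol carrier, rose from 0.636 ± 0.656 to 3.83 ± 1.94. The Rbp4 call ended under 10 alternatives (adjusted p up to 0.141).

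Tnnt2, the cardiac troponin T gene, stood at 134, 149, 229 and 330.4 in primary tumours and 36.7, 24.7, 4.19 and 31 in lung metastases (log2 change -3.31, SE 0.56, adjusted p = 0.00474). Myh6, the cardiac myosin heavy chain gene, had 0 reads in the primary tumours and rose to 7.75, 1.42, 4.19 and 2.18 in the metastases (adjusted p = 0.00939). Of 4 cardiac genes tested these were the 2 called, where 9.13% of all genes tested were called. Fabp4, a fatty acid binding protein of fat cells and capillaries, fell from 151, 56.1, 89 and 17.3 to 12.5, 2.74, 3.99 and 11.3 (adjusted p = 0.0132). Fat cell genes were uneven among the primary tumours. Cfd, adipsin, a factor made by fat cells, stood at 91.5, 1.58, 36.1 and 1.23 against 1.03, 0.996, 0 and 0 (adjusted p = 0.116, 0.0147 to 0.275 over its alternatives, 0.0147 with DESeq2). Of 6 adipocyte genes 1 fell, against 1.96% of all genes tested. The primary tumours 1 and 3, highest in Cfd, were also the highest in Fabp4. The adipocyte list took 0.00356% to 0.0322% of the column total in primary tumours, against 0.00287% to 0.0104% in the metastases. Adipoq and Lep, hormones of fat cells, had 0 reads in all 4 metastases and in primary tumour 2. The list's part in the fall of Fabp4 was not tested.

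The Hox genes, which set position along the body axis, were looked at after their values were seen. Both Hoxd genes tested fell. Hoxd8 fell from 4.73, 23, 4.99 and 14.7 to 2.41, 0.0356, 0 and 0.378 (adjusted p = 0.0102, 0.00393 to 0.0778 over its alternatives, 0.0778 with edgeR). Hoxd9 fell from 2.86, 9.15, 2.19 and 4.79 to 0 reads in all metastases, at least 34.3-fold lower (adjusted p = 0.00352). Of 9 Hoxa genes 1 fell and 0 rose, and of 4 Hoxb genes 1 rose and 0 fell. The shares over all genes tested were 1.96% lower and 7.18% higher. Hoxa2 went from 20.9 ± 5.77 to 9.94 ± 1.74 and Hoxb5 from 0.47 ± 0.23 to 4.64 ± 2.97. The Hoxa2 call ended without lung metastasis 1 or 2 or primary tumour 2, 3 or 4 (adjusted p 0.0682 to 0.152) and with a mouse block (0.0679), median-ratio scaling (0.0513) and totals without lung and blood genes (0.0555), and across all alternatives the adjusted p was 0.00418 to 0.152. The Hoxb5 call ended without primary tumour 1, 3 or 4 (adjusted p 0.0501 to 0.0547), and across all alternatives the adjusted p was 1.61e-05 to 0.0547. Whether Hoxd differed from the other clusters was not tested.

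Of the 20 largest falls on the log2(value + 1) scale 7 belonged to no list: Lad1, Prom2 and Hoxd8, given above, and 4 others. Fam169a stood at 12, 16.3, 12.4 and 18.3 against 1.74, 1.99, 0.946 and 0 (adjusted p = 0.000881), and Coro6, an actin-binding coronin, at 17.6, 52.6, 34.3 and 30.2 against 8.74, 4.62, 4.39 and 0.672 (adjusted p = 0.00744). Moxd1, a copper monooxygenase of the dopamine beta-hydroxylase family, stood at 117, 114, 140.1 and 229 against 63.4, 19, 6.22 and 26.9 (adjusted p = 0.0116). Megf10, an engulfment receptor, stood at 7.75, 6.39, 5.5 and 8.7 against 0.633, 1.42, 0 and 0 (adjusted p = 0.00169, 0.000344 to 0.077 over its alternatives, 0.077 with edgeR). For these 4 the groups did not overlap, and lung metastasis 3 or 4 held the lowest metastasis value. In all, 239 of the 274 falls lay in none of the 43 lists.

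Of the 12 falls with the highest primary mean 3 kept their call under every alternative, and the other 9, Spp1, Apoe and Lama5 of the lists above among them, did not. Gadd45a, a growth arrest gene induced by DNA damage, fell from 395, 237, 488 and 445 to 139, 102, 53.4 and 75.4 (log2 change -2.11, SE 0.31, adjusted p = 0.00207). Pmepa1, a membrane protein induced by transforming growth factor beta, fell from 551, 324, 710.3 and 539 to 149.9, 158, 71.5 and 246 (adjusted p = 0.00998). The third was F13a1, given above. Several of the others encode secreted proteins: Cp, the copper ferroxidase ceruloplasmin, went from 881 ± 211 to 372 ± 107. Ltbp3, which binds latent transforming growth factor beta, went from 791 ± 168 to 351 ± 108, and Clu, the chaperone clusterin, from 562 ± 232 to 224 ± 88.2. Bmp1, the protease that trims procollagen, went from 457 ± 93.6 to 216 ± 73.1. The heparan sulfate proteoglycan gene Gpc1 went from 414 ± 48.3 to 234 ± 41.7, and Cttn, the actin regulator cortactin, from 459.6 ± 100.1 to 231 ± 73.7. The groups did not overlap for any of these 6 genes, but each call ended without primary tumour 4. The adjusted p was then 0.0608 for Cp, 0.0649 for Ltbp3, 0.122 for Clu, 0.131 for Bmp1, 0.0546 for Gpc1 and 0.111 for Cttn. With a mouse block the calls of Ltbp3, Bmp1, Gpc1 and Cttn ended (adjusted p 0.0533 to 0.0914). Over the alternatives the adjusted p ran from 0.000109 to 0.0608 for Cp, 0.000449 to 0.074 for Ltbp3, 0.00433 to 0.122 for Clu, 0.00245 to 0.131 for Bmp1, 8.86e-05 to 0.0674 for Gpc1 and 0.00505 to 0.131 for Cttn.

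The 8 falls of under 2-fold with the smallest p, of 104, were of genes with various roles. Fmnl3, a formin that builds actin filaments, stood at 109, 164, 116 and 124 in primary tumours and 67.6, 61.9, 69.1 and 58.8 in lung metastases (log2 change -0.97, SE 0.17, adjusted p = 0.00506). Foxo1, a transcription factor held back by insulin signalling, stood at 92.2, 106, 93.1 and 106 against 58.8, 53, 63.1 and 55 (log2 change -0.78, SE 0.14, adjusted p = 0.00752). Dvl1, a dishevelled protein that relays Wnt signals, stood at 142, 137, 171 and 141 against 84.5, 96.5, 88.6 and 86.7 (log2 change -0.72, SE 0.14, adjusted p = 0.0107). In each of these 3 the spread of the 4 metastases, lung metastasis 3 included, was smaller than the gap to the lowest primary tumour. Lzts2, which restrains nuclear beta-catenin, fell from 126 ± 14.5 to 72.4 ± 7.88. Rhbdf1, an inactive rhomboid of growth factor trafficking, fell from 84.4 ± 7.06 to 44.6 ± 8.42. Pogk, a nuclear protein derived from a transposase, fell from 102 ± 3.6 to 56.3 ± 10.6 and Exosc5, a subunit of the RNA exosome, from 56.9 ± 5.53 to 30.5 ± 4.76. Atp9a, a lipid flippase of endosomes, went from 149 ± 6.35 to 93.4 ± 7.8 (adjusted p = 0.0134). Its call ended without lung metastasis 1 (adjusted p = 0.0507) and with a mouse block (0.0505), and across all alternatives the adjusted p was 0.000187 to 0.0507.

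**Figure D3:**
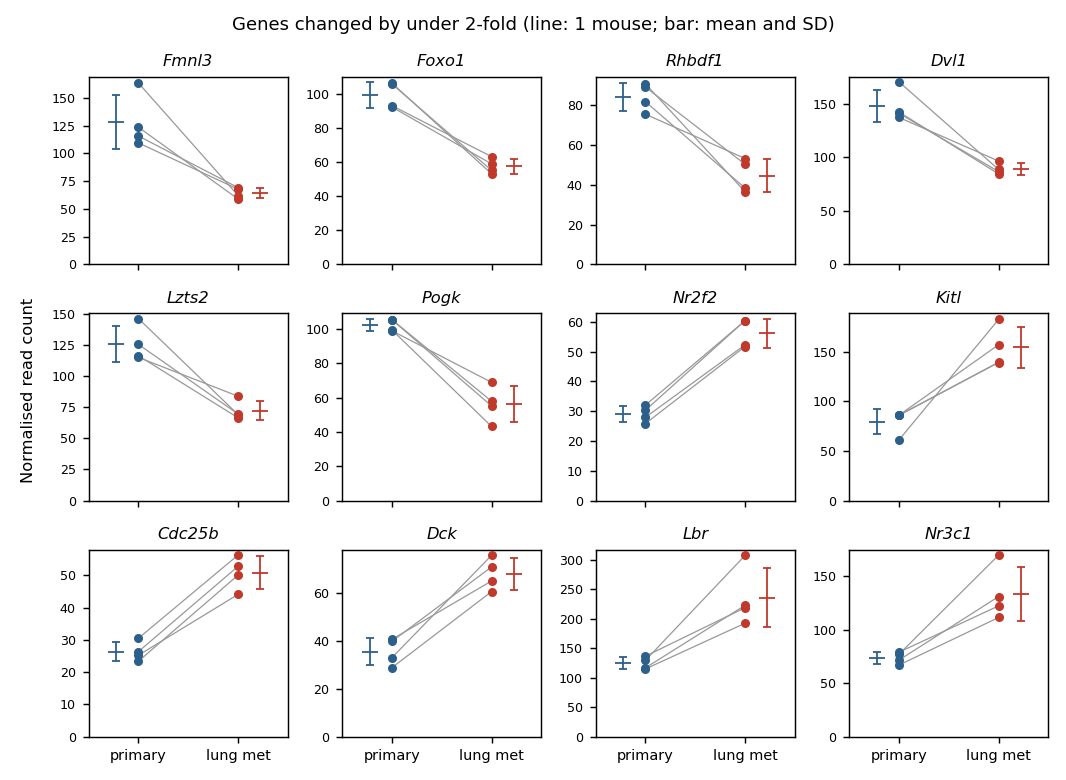
Normalised read counts of 12 genes changed by under 2-fold, 1 point per library, with a line joining the 2 tumours of a mouse and bars for the mean and SD of 4 mice; each axis starts at 0. The 6 genes from Fmnl3 to Pogk lie lower and the 6 from Nr2f2 to Nr3c1 higher in all 4 metastases than in any primary tumour.

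The 8 rises of under 2-fold with the smallest p, of 55, were likewise of various roles. Nr2f2, an orphan nuclear receptor of veins and stroma, rose from 32, 25.8, 30.3 and 27.9 to 60.4, 51.7, 60.4 and 52.3 (log2 change 0.93, SE 0.16, adjusted p = 0.00518). Kitl, the ligand of the Kit receptor, rose from 85.7, 85.9, 60.9 and 85.8 to 139, 157, 182 and 139 (log2 change 0.95, SE 0.17, adjusted p = 0.00677), with primary tumour 3 the lowest library. Cdc25b, a phosphatase that starts mitosis, rose from 23.4, 26.3, 30.5 and 25.2 to 50.1, 52.8, 56.2 and 44.1 (log2 change 0.92, SE 0.17, adjusted p = 0.00752). The calls of these 3 held under every alternative. Dck, deoxycytidine kinase, rose from 35.5 ± 5.65 to 68 ± 6.62, and Lbr, the lamin B receptor of the nuclear envelope, from 124 ± 10.4 to 235 ± 49.8. Elovl5, a fatty acid elongase, rose from 69.8 ± 9.29 to 129.9 ± 22.4, and Nr3c1, the glucocorticoid receptor, from 73.8 ± 5.45 to 134 ± 25.4. These 4, like the 3 before them, were highest in lung metastasis 3. Slc9a3r1, a scaffold of epithelial membranes, went from 46.4 ± 6.02 to 95.5 ± 25.8 (adjusted p = 0.0139). The call ended without primary tumour 1 (adjusted p = 0.0512), and across all alternatives the adjusted p was 0.000293 to 0.0512. The counts of modest changes moved with the fit. With a mouse block 33 falls and 30 rises of under 2-fold were called. Leaving out 1 library gave 12 to 261 falls and 10 to 189 rises, both highest without lung metastasis 3 and lowest without primary tumour 4.

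Among lists of cell programmes, genes of the response to low oxygen were mostly lower. Bulk tissue cannot assign these programmes to a cell type. Of 14 tested 12 were negative, 3 fell and 0 rose, with a median of -0.74 (-0.44 without lung metastasis 3). Over the alternatives 1 to 4 of them fell. Over all genes tested 54.9% were negative, 1.96% fell and 7.18% rose. Ddit4, an inhibitor of growth signalling through mTOR, fell from 146, 179, 122 and 167 to 71.6, 80, 45.4 and 80.2 (adjusted p = 0.00771). Pdk1, a kinase that slows pyruvate use in mitochondria, went from 62.8, 113, 68.4 and 71.2 to 36.8, 25.9, 24.8 and 49.2 (adjusted p = 0.0167). Egln3, an oxygen-sensing hydroxylase, went from 154, 389, 171 and 286 to 139, 96.5, 46.1 and 104 (adjusted p = 0.0455), and like Pdk1 it was highest in primary tumour 2. Vegfa, the vascular growth factor gene that is also made by lung epithelium, ran the other way at 48.7, 99.4, 57.7 and 50.8 against 138, 126, 307 and 84.3 without passing (adjusted p = 0.0643, 0.00389 to 0.18 over its alternatives). The Pdk1 call ended without lung metastasis 2 or primary tumour 4 (adjusted p 0.0512 to 0.0512), and across all alternatives the adjusted p was 0.00183 to 0.0512. That of Egln3 ended without lung metastasis 2 or 4 or primary tumour 1, 2, 3 or 4 (adjusted p 0.0503 to 0.141) and with a pseudocount of 5 (0.0521), a filter at 5 (0.0566), totals without lung and blood genes (0.0526) and edgeR (0.0587), and across all alternatives the adjusted p was 0.0058 to 0.141. Of 15 glycolysis genes 13 were negative and 0 were called. Slc2a1, the glucose transporter, stood at 182 ± 58.5 against 94.9 ± 30 (adjusted p = 0.0599, 0.0258 to 0.137 over its alternatives). At an unadjusted p under 0.05 there was 1 fall among them, edgeR called 0 and DESeq2 1 fall.

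Other programmes also held called genes. Over all genes tested 7.18% rose and 1.96% fell. In the p53 pathway 2 of 11 genes fell (1 to 4 over the alternatives), Gadd45a and Phlda3, a repressor of Akt signalling, which went from 47.9 ± 4.95 to 28.1 ± 4.38. The Phlda3 call ended without lung metastasis 1 or 2 or primary tumour 1, 3 or 4 (adjusted p 0.0589 to 0.0924) and with a mouse block (0.0664), and across all alternatives the adjusted p was 0.000852 to 0.0924. In the amino acid response Slc7a11, the cystine transporter, stood at 33.1, 199, 56.8 and 83 against 30.7, 10.5, 3.92 and 18.4, highest in primary tumour 2 (adjusted p = 0.031). Vldlr, a lipoprotein receptor, rose from 2.37 ± 1.58 to 18.4 ± 13.5. The Slc7a11 call ended without lung metastasis 2 or primary tumour 2, 3 or 4 (adjusted p 0.0619 to 0.0947) and with edgeR (0.051), and across all alternatives the adjusted p was 0.000878 to 0.0947. The Vldlr call ended without primary tumour 1 or 4 (adjusted p 0.0513 to 0.0559), and across all alternatives the adjusted p was 6.52e-05 to 0.0559. Of 15 Wnt and BMP signalling genes Bmp1 fell. Axin2, a target and brake of Wnt signalling, rose from 1.4 ± 0.352 to 9.71 ± 6.34 and Bmp4, a bone morphogenetic protein, from 1.34 ± 0.531 to 15.2 ± 7.41, both highest in lung metastasis 3.

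All 15 cell cycle genes had a positive log2 change, with a median of 0.42, and 1 was called. Over all genes tested 54.9% were negative and 9.13% were called. Top2a, the topoisomerase of dividing cells, stood at 418, 288, 332 and 291 against 632, 720.3, 425 and 590.4 (adjusted p = 0.0407). Its call ended without lung metastasis 1, 2 or 4 or primary tumour 2, 3 or 4 (adjusted p 0.0602 to 0.143) and with a mouse block (0.0763), and across all alternatives the adjusted p was 0.0005 to 0.143. Without lung metastasis 3 the median was 0.79 and 5 of the 15 rose, and 4 of 16 DNA replication genes rose, against 0 with it. All 15 ribosomal protein genes were negative with 0 called (median -0.64, and -0.30 without lung metastasis 3); Rpl5 stood at 1062, 829, 799 and 798 against 603, 484, 212 and 860.3 (adjusted p = 0.206). Antigen presentation genes were negative in 9 of 10, and in 1 of 10 without lung metastasis 3, with 0 called. At an unadjusted p under 0.05 there were 1 rise in the DNA replication list, 1 fall in the ribosomal list and 0 in antigen presentation, and edgeR and DESeq2 called 0 in these 3 lists.

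**Figure D4:**
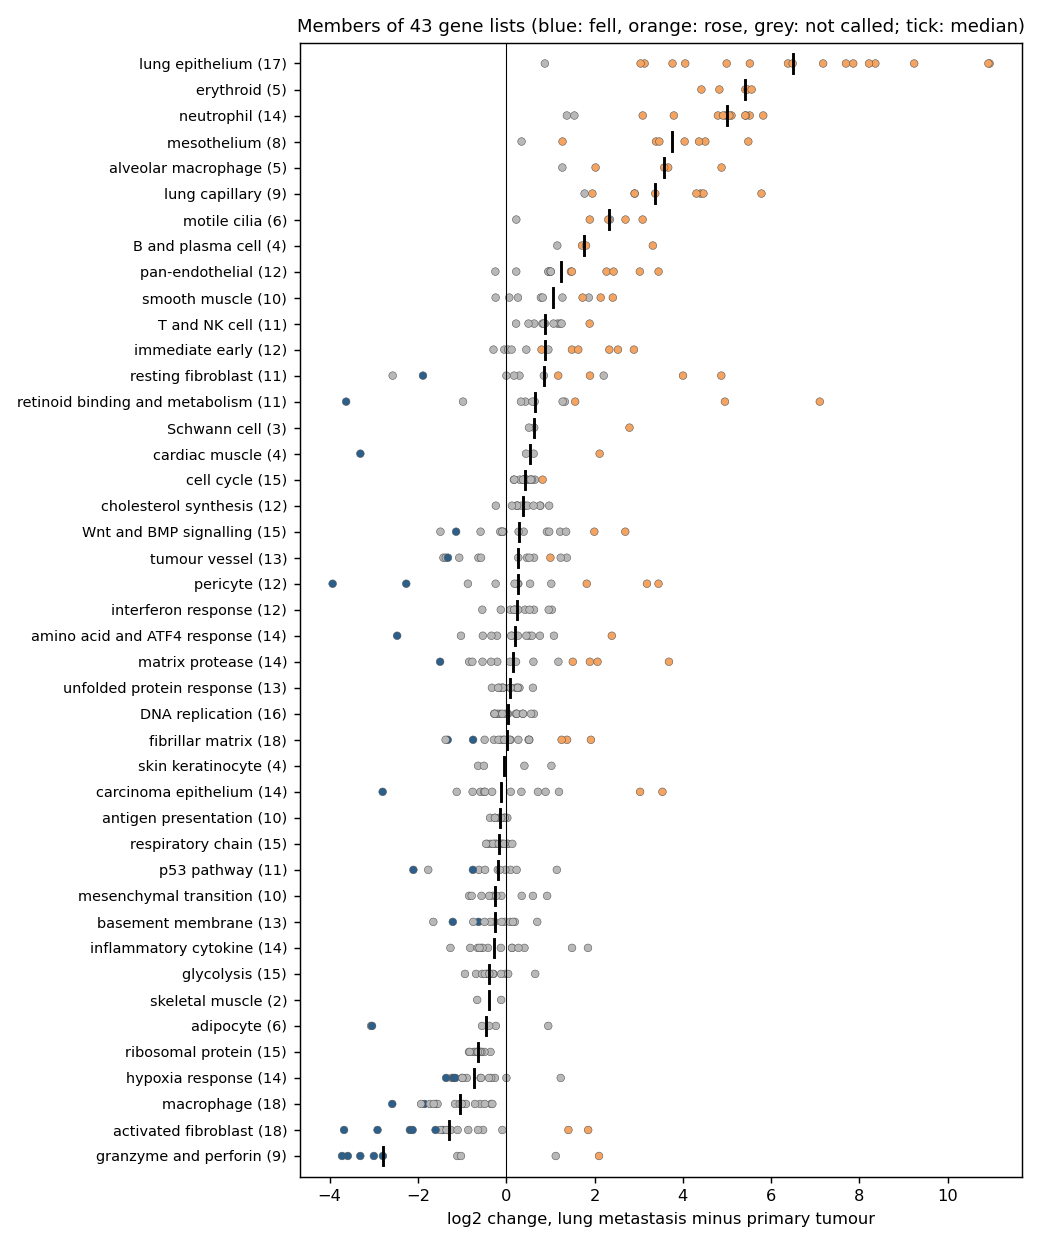
Each point is a tested member of 1 of 43 gene lists, placed by its log2 change, with the number of members tested in brackets and a tick at the median; blue points fell, orange points rose and grey points were not called. Lists of lung and blood cells lie at the top with medians up to 6.49, and the granzyme, activated fibroblast and macrophage lists at the bottom with medians of -2.80, -1.31 and -1.05.

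Over the 43 lists 17 held a fall and 26 a rise, and 12 held no called gene. Lung and blood cells held many of the rises: 12 of 14 neutrophil genes and all 5 erythroid genes rose, with 0 falls. The share of all genes tested that rose was 7.18%. Of 6 motile cilia genes 4 rose, 3 with a mouse block and 1 to 5 over the alternatives. The plot of list shares shows the same libraries side by side. Activated fibroblast genes took a smaller share in every metastasis than in any primary tumour, as did macrophage genes with Spp1 and Apoe included, whereas the cell cycle share was higher in the metastasis of mice 1, 2 and 4 and lower in that of mouse 3 (0.105% against 0.146%).

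**Figure D5:**
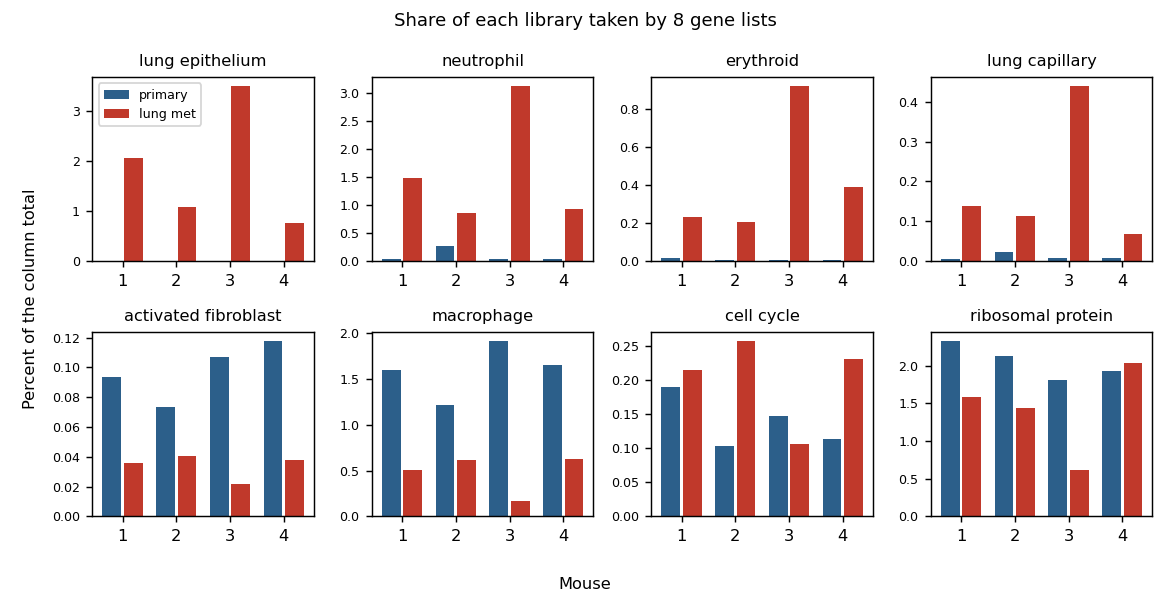
Bars give the percent of the column total taken by the genes of 8 lists in each library, primary tumour (blue) and lung metastasis (red) of mice 1 to 4; every axis starts at 0. Lung epithelium, neutrophil, erythroid and lung capillary genes peak in lung metastasis 3, where the activated fibroblast (0.0220%) and macrophage (0.166%) shares are lowest.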

How the data were processed

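RNA from bulk tumour tissue of 4 mice of the breast cancer model was extracted with an RNeasy kit and made into libraries with a TruSeq kit, per the labels' protocols. The build was mm9 per the submitters' processing notes. The sources used here do not give the aligner, counting tool, annotation or use of strand, so reads of a gene and an overlapping antisense gene cannot be told apart. The authors deposited signal values, here taken as read counts over a size factor. Divided by the worth of 1 read in each column (0.0337 to 0.0676), 100% of values came out whole within 0.05 reads, which recovered the reads. The design had assumed CPM. The table has 37583 rows, of which 15466 carry a symbol; the 12 columns of the series' other model do not follow the symbols and were not used here.

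The test was limma 3.58.1 (R 4.3.3) with an intensity trend on log2(value + 1) over the 8 libraries, with group means only, for genes that reached a value of 1 in 4 or more libraries, and Benjamini-Hochberg adjustment over all 14003 genes at 0.05. All adjusted p-values are limma's unless another tool is named. Alternatives were pseudocounts of 0.1 and 5, no filter or a filter at 5, the mouse as a block, median-ratio and TMM scaling, totals without lung, neutrophil and erythroid genes, array weights, edgeR 4.0.16 and DESeq2 1.42.0 on the recovered reads, and each library left out. The script was tested on simulated data. Same-numbered tumours come from the same mouse by their titles. Their deviations from the group means correlated at 0.1, -0.15, 0.03 and 0.01 in mice 1 to 4 (median 0.02, 14003 genes). A gene with 0 reads in a group was given a floor of 3 reads per library; reads carry no molecular identifiers, so the floor covers counting error only. Promoters were aligned with Biopython 1.88.

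The members and the 43 gene lists (550 entries, 512 matched, 484 tested) were chosen with earlier results of these data known. Genes were named by rule: Sftpc, Camp, Rgs5 and Lrrc15; the 20 largest falls among called genes without overlap; the 12 called falls with the highest primary mean; the 8 rises and 8 falls of smallest p under 2-fold; up to 6 genes with 0 reads in all metastases; and up to 4 members of smallest p per list. Acta2, Adipoq, Arg1, Bgn, Col1a1, Cox4i2, Dpt, Fap, Fn1, Gzmb, Hoxa2, Hoxb5, Krt8, Krt18, Lep, Mmp9, Pdgfrb, Postn, Prf1, Sfrp2, Tnc, Twist2 and the genes so marked in the closing section were named after their values were seen. Some genes counted in the lists are not reported here by name.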

Additional observations from a re-analysis of the deposited data

Results flagged for a closer look

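In each group of 4 libraries the highest and lowest value of 125 genes named in the text were compared with the rest, and in 21 of 250 such groups 1 library lay farther off than Dixon's criterion allows at the 95% level. Chance flags about 1 in 20 groups, and genes that move together are flagged together. Primary tumour 2 was the library in 10 of the 21. It lay above the other primary tumours in 5 genes of cytotoxic cells, at 112 for Gzmg, 102 for Gzmf, 92.9 for Gzmd, 33.4 for Gzme and 13.7 for Prf1, and also in Timp3 (18.5), Adamts4 (73.4), Pdk1 (113), Cnn1 (3.63) and Fos (41.7).

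Primary tumour 3 lay above the other primary tumours in Gpc1 (486) and Dvl1 (171) and below them in Kitl (60.9). Primary tumour 1 was high in Camp (10.8) and Rpl5 (1062), and primary tumour 4 in Aldh1a2 (1.97). Among the lung metastases number 1 was high in Hoxd8 (2.41) and Prf1 (6.17), number 3 was low in Col12a1 (10.1) and Bmp1 (107), and number 4 was the only one with reads of Lrrc15 (0.504). For Col12a1 the fall stood under every alternative, that without lung metastasis 3 included.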

How the results depend on the processing

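The main counts were 1279 genes called, 1005 higher and 274 lower, with 55 rises and 104 falls of under 2-fold. No direction that was called reversed under any of the 19 alternatives for the counts and genes named. A pseudocount of 5 gave 190 rises of under 2-fold, and a filter at a value of 5 left 644 rises among the 11440 genes it keeps. With the mouse as a replicate block there were 176 falls, 33 falls of under 2-fold and 30 rises of under 2-fold; this pairing rests on the same mouse. Array weights, which down-weight lung metastasis 3, gave 2283 calls, 1536 rises and 747 falls (32.7% of calls against 21.4%), with 325 rises and 488 falls of under 2-fold. DESeq2 gave 1985 calls, 517 of them falls, with 160 rises and 290 falls of under 2-fold. Leaving out 1 library gave 711 to 1603 calls, 627 to 1237 rises, 84 to 431 falls, 10 to 189 rises of under 2-fold and 12 to 261 falls of under 2-fold. The falls were 142 without lung metastasis 1, 141 without primary tumour 1, 122 without primary tumour 3, 84 without primary tumour 4 and 431 without lung metastasis 3. The cause of these shifts was not tested. Another scaling moved the median of all genes by 0.01 to 0.04 on the log2 scale. In 15447918 reads, the shallowest library, 1 read is worth 0.0676, so 0 reads there do not show absence of a low gene. Data were simulated for this comparison on 14003 genes, with 50 genes changed at each of 4 sizes. There the test recovered 4% of 1.5-fold, 10% of 2-fold, 80% of 4-fold and 94% of 8-fold changes. In the measured data, where 1279 genes were called, the share of changes recovered was not tested.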

Other observations

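Growth regulators, surface proteins and other genes outside the gene lists were among the 75 falls called whichever library was left out. The 7 given here were chosen after their values were seen. Thy1, a surface glycoprotein of fibroblasts and T cells, stood at 57, 48.1, 57.9 and 68.4 in primary tumours and 14.9, 9.14, 9.53 and 12.4 in lung metastases (limma, adjusted p = 0.000187). Pdgfc, a platelet-derived growth factor that acts on stromal cells, stood at 201, 166, 264 and 231 against 47, 57.8, 24.7 and 58.7 (adjusted p = 0.000707). Spry1, an inhibitor of receptor tyrosine kinase signalling, stood at 203, 228, 357 and 264 against 105, 87.8, 93 and 71.6 (adjusted p = 0.00119). In these 3 genes every metastasis lay below every primary tumour.

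The other 4 encode transcription factors, a cell surface protein and an enzyme. Tead2, a partner of the Hippo pathway's coactivators, went from 160.0 ± 27.5 to 58 ± 24.5 (adjusted p = 0.00622). Sox4, a developmental factor, went from 192 ± 17.3 to 82.4 ± 33 (adjusted p = 0.0111). Itgb5, an integrin chain that binds vitronectin, went from 354 ± 67.8 to 151 ± 35.3 (adjusted p = 0.00528). Hs6st1, which adds sulfate to heparan sulfate, went from 76.6, 92.6, 99.2 and 132 to 41.3, 27.9, 42.3 and 38 (adjusted p = 0.00229).

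Immediate early genes, which cells switch on within minutes of a stimulus, were higher in lung metastases: 6 of 12 rose and 0 fell. Over all genes tested 7.18% rose and 1.96% fell. The list's median log2 change was 0.87 (also 0.87 without lung metastasis 3), and 3 to 6 members rose over the alternatives. Zfp36, which destabilises cytokine messages, stood at 30.8, 47.9, 31.9 and 37.2 in primary tumours and 134, 131, 367 and 190.4 in lung metastases (log2 change 2.33, SE 0.31, adjusted p = 0.00112). Fos, a subunit of the AP-1 transcription factor, stood at 12.4, 41.7, 9.17 and 14.1 against 54.2, 82.3, 111 and 188 (adjusted p = 0.00744). The time between removal and freezing of each tissue is not given, and its part in these rises was not tested. B and plasma cell genes rose in 3 of 4 (1 to 3 over the alternatives), with Igj, the joining chain of secreted antibodies, at 4.69, 0.434, 1.18 and 1.16 against 76.3, 29.8, 7.71 and 17.4 (adjusted p = 0.00908).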
